A study of Homo sapiens with 42 samples.

Results

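A set of 10 genes that govern the passage of a cell from G1 into S phase was followed here, the D-type cyclins CCND2 and CCND3, the E-type cyclins CCNE1 and CCNE2, the kinases CDK4 and CDK6, the phosphatase CDC25A, the inhibitors CDKN1A (p21) and CDKN1B (p27) and the transcription factor E2F1. They were taken by name from the deposited count table, 10 of its 57353 gene names, and all 10 were among the 12939 genes that passed the filter on low counts. The cells were MOLM-13, an acute myeloid leukemia line that carries FLT3-ITD, a duplicated stretch in the receptor kinase FLT3 that keeps it active. They were kept for 12 hours with drug or vehicle in regular medium (RPMI) or in hBMSC-CM, which is RPMI mixed in equal parts with medium conditioned by HS-5, a stromal line from human bone marrow. In RPMI the treatments were vehicle (DMSO), the FLT3 inhibitor quizartinib (AC220) at 3 nM, and quizartinib with the mTOR inhibitor everolimus at 10 nM (combo), and hBMSC-CM had these 3 at the same doses and also everolimus alone. There were 7 conditions of 3 cultures each, and every culture gave a library of its whole poly(A) RNA (input) and one of heavy polysomes, the messages that several ribosomes occupy, hence 42 libraries. Every group was this single cell line, and its stromal signals were those of HS-5 medium, with no stromal cells in the culture. Levels are TMM-scaled CPM, the counts of a gene relative to the library's total multiplied by its TMM scaling factor, and a change was called where its adjusted p was under 0.05.

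In G1, D-type cyclins bind CDK4 or CDK6 and start the phosphorylation of the retinoblastoma protein, which releases E2F factors. E2F1 drives genes of DNA synthesis, cyclin E and its own gene, and cyclin E bound to CDK2 completes the phosphorylation, while CDC25A removes the inhibitory phosphate from CDK2. p21 and p27 bind and restrain these kinases. In FLT3-ITD leukemia the receptor signals without ligand to STAT5, RAS-ERK and PI3K pathways, which lie upstream of cyclin D.

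Promoter letters are shown for CDC25A, E2F1 and CDK4, since these 3 of the searched genes that fell together under quizartinib carry the letters. RefSeq windows (GRCh38.p14) of 8 of the 10 genes were searched. CCND2 and CCNE2 were not searched, so the letters before their start sites are unknown here. The 250 bases before the start site were searched on both strands for E2F-type letters (TTTGGCGC, TTTCCCGC, TTTCGCGC or TTTGCCGC) and for the E-box CACGTG, which reads the same on both strands, and the 2 kinds of letters do not overlap one another. The E2F-type letters were in 2.79% of 35116 windows of this length and the E-box in 6.34%. Among the 8 genes the E2F-type letters were in CDC25A and E2F1 and the E-box was in CDK4. CDC25A held TTTGGCGC from 44 to 37 bases before the start. E2F1 held TTTGCCGC on the other strand (printed as GCGGCAAA) from 33 to 26 bases before it and TTTGGCGC from 20 to 13. CDK4 held the E-box from 216 to 211, from 196 to 191 and from 101 to 96 bases before it. A match describes letters, and binding was not measured. The sequences lie on the minus strand at chr3:48188418-48188667 (CDC25A), chr20:33686386-33686635 (E2F1) and chr12:57752311-57752560 (CDK4), are written 5′ to 3′, and capitals mark the matches.
CDC25A: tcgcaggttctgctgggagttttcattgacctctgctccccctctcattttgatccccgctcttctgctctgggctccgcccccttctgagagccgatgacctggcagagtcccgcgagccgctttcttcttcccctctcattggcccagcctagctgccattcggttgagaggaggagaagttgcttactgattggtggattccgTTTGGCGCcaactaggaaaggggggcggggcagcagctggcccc
E2F1: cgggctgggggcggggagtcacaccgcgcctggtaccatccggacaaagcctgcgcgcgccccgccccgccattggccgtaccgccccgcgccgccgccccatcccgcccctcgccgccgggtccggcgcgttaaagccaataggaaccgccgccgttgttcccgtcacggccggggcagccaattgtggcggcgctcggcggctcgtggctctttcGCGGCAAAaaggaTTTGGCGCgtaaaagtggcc
CDK4: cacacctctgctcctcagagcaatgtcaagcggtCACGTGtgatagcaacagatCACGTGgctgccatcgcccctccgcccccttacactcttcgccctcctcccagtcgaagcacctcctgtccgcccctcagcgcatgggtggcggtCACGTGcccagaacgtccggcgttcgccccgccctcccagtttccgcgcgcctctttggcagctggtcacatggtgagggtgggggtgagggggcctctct

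On GRCh38 (GENCODE v44), the D-type cyclin genes lie at chr12:4269771-4305353 (CCND2, plus strand) and chr6:41934934-42050357 (CCND3, minus), and the E-type cyclin genes at chr19:29811991-29824312 (CCNE1, plus) and chr8:94879770-94896678 (CCNE2, minus). The kinase genes lie at chr12:57747727-57756013 (CDK4, minus) and chr7:92604921-92836573 (CDK6, minus), and CDC25A at chr3:48157146-48188417 (minus). CDKN1A lies at chr6:36676460-36687337 (plus), CDKN1B at chr12:12685498-12722369 (plus) and E2F1 at chr20:33675477-33686385 (minus). The reads of 6 of these genes may include those of another gene, since the strandedness of the counting is not given in the sources used here. Exons on the opposite strand overlap CCND2 (CCND2-AS1), CCND3, CCNE2 (INTS8), CDK4 (TSPAN31), CDK6 (CDK6-AS1) and CDKN1A (DINOL), an unnamed gene on its own strand overlaps CCND2, and CCND2, CCND3 and CDK4 have pseudogenes named after them.

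Total counts were 19.4 to 37.2 M for input and 21.5 to 38.8 M for polysome libraries, and the lowest count of any of the 10 genes in any library was 3. Of 9 myeloid markers all were detected in every input library (SPI1, which encodes PU.1, at 265 to 503 CPM), while the stromal genes COL3A1, LUM and THY1 and the erythroid gene ALAS2 were at 0 in all 21. The summed level was 1294 to 2263 CPM for the myeloid list, and at most 4.02 CPM for a lymphoid and 2.14 CPM for a stromal list. These marker levels are relative to the library's total alone, without the TMM factor. The libraries of everolimus alone stood apart. The chi-square per gene between 2 replicate libraries was 4.96 to 7.51 (input) and 7.05 to 17.1 (polysome) with everolimus alone, against 30.2 to 224 and 31.1 to 308 in the other conditions. Apart from those libraries, replicates of the same number deviated together across conditions, so values from a fit with the replicate number as a block within each fraction are given where they change a call. Everolimus alone and the handling of its libraries cannot be told apart.

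In RPMI, quizartinib lowered the input level of 7 of the 10 genes, both D-type and both E-type cyclins, CDK4, CDC25A and E2F1, and raised none. Across all genes tested, 34.6% were called in this comparison, 18% lower and 16.6% higher. The median log2 change was -1.98 over the 10 genes and 0.08 over all genes tested. CDC25A, which activates CDK2, was at 51.8, 53.1 and 54.1 CPM in the vehicle cultures and at 5.24, 5.01 and 7.09 CPM under quizartinib. No culture lay between these groups, and the log2 change was -3.20 (SE 0.24, adjusted p = 1.69e-12). E2F1 was at 39.6, 34.3 and 44.0 CPM with vehicle and at 2.77, 4.10 and 7.09 CPM with quizartinib. The third quizartinib culture was the highest of its group, yet far under every vehicle culture, and the log2 change was -3.08 (SE 0.32, adjusted p = 2.33e-09).

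The cyclins differed in the depth of the fall. CCNE1 was at 28.0, 22.3 and 26.7 CPM with vehicle and at 2.96, 2.18 and 4.34 CPM with quizartinib, a log2 change of -3.02 (SE 0.33, adjusted p = 6.70e-09). CCNE2, the second E-type cyclin and the lowest of the set, was at 8.43, 9.05 and 6.22 CPM with vehicle and at 1.04, 2.12 and 0.709 CPM with quizartinib, a log2 change of -2.61 (SE 0.48, adjusted p = 4.72e-05). The groups of both genes were clear of each other. CCND2, which was at 72.6, 80.1 and 69.2 CPM with vehicle and at 19.3, 17.7 and 14.7 CPM with quizartinib, changed by -2.10 on the log2 scale (SE 0.17, adjusted p = 8.29e-12). CCND3, the D-type cyclin with the higher level per length, went from 189, 178 and 200 CPM to 65.8, 93.2 and 101 CPM, a log2 change of -1.12 (SE 0.19, adjusted p = 1.67e-05). It had the smallest change among the 7 genes called, and its first quizartinib culture was the lowest.

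The kinases and inhibitors split. CDK4 fell from 204, 185 and 183 CPM to 51.9, 51.0 and 54.8 CPM, a log2 change of -1.86 (SE 0.41, adjusted p = 0.000447). CDK6, its close relative, was at 280, 279 and 262 CPM with vehicle and at 308, 311 and 219 CPM with quizartinib, so its groups overlapped. The inhibitors were not called. CDKN1A was at 133, 161 and 124 CPM with vehicle and at 147, 203 and 104 CPM with quizartinib, again overlapping. CDKN1B was at 37.3, 33.0 and 25.3 CPM with vehicle and at 54.6, 55.0 and 32.4 CPM with quizartinib, higher in 3 of 3 same-numbered pairs. Its log2 change was 0.57 (SE 0.28, adjusted p = 0.117), and with the replicate block within each fraction 0.54 (SE 0.18, adjusted p = 0.0131), so that p27 was called higher with a block (0.55, adjusted p = 0.0359, with the block over all libraries) or without the third RPMI quizartinib culture (0.77, adjusted p = 0.0433). The other 7 calls were kept in every alternative that was run. In bulk RNA, fewer cells in a cycle phase and less RNA per cell cannot be told apart. The plot of input level by condition shows each culture.

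**Figure D1:**
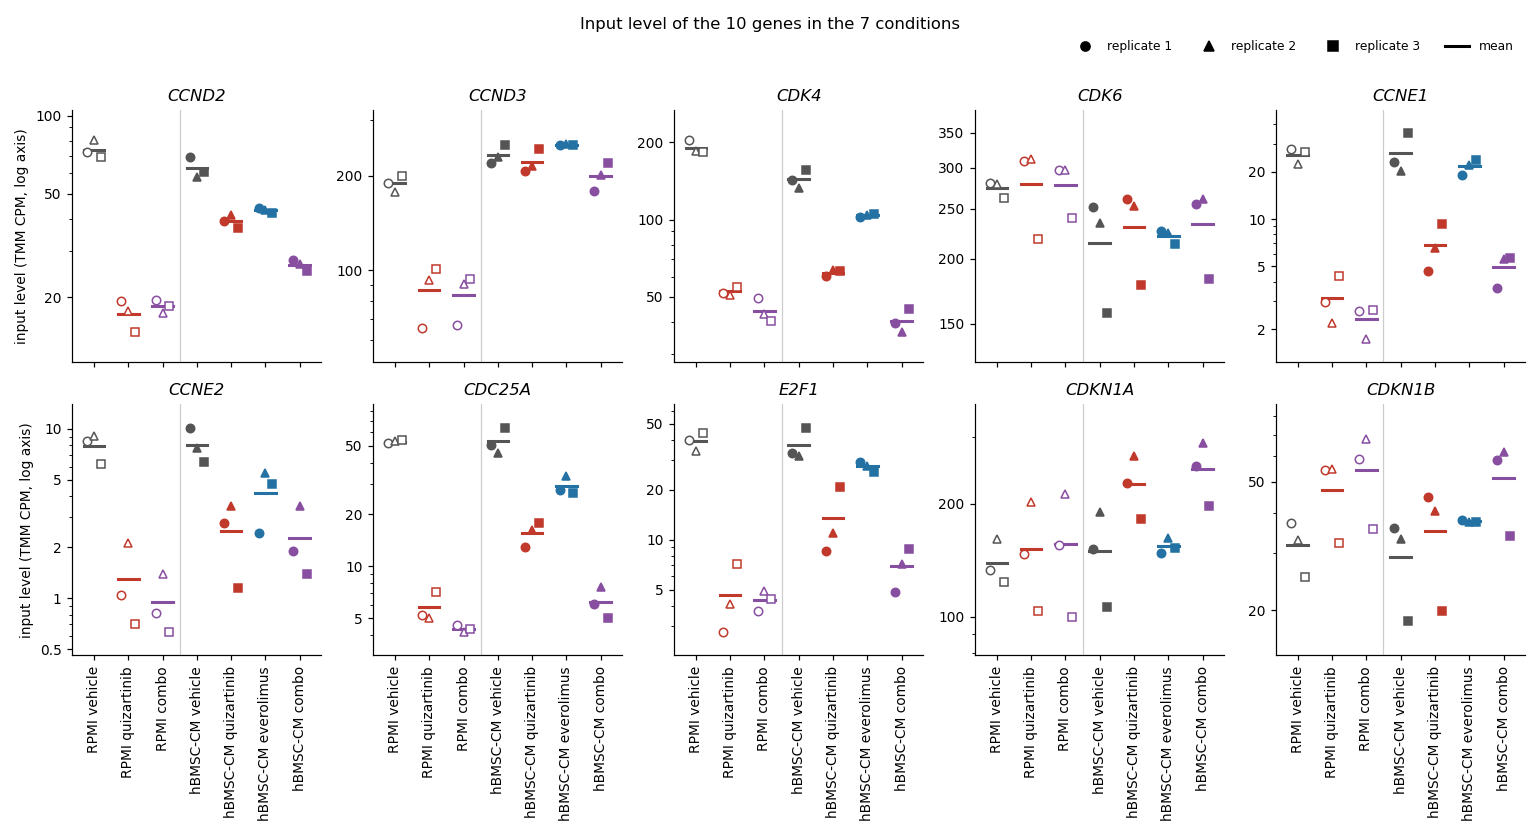
Input level of each gene (CPM, log axis) in the 7 conditions, with open symbols for RPMI, filled symbols for hBMSC-CM, a shape for each replicate number and a bar for the mean of 3 cultures. CDC25A sits at 51.8 to 54.1 CPM in RPMI vehicle and at 5.01 to 7.09 CPM in RPMI quizartinib, whereas CDK6 stays between 158 and 311 CPM throughout.

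In hBMSC-CM, quizartinib lowered 6 of the 10 genes, CCND2, CCNE1, CCNE2, CDK4, CDC25A and E2F1, where 12.3% of all genes tested were called and 6.84% were called lower. The median log2 change of the 10 genes was -0.94, against 0.01 over all genes tested. CDC25A went from 50.8, 45.3 and 63.5 CPM to 13.0, 16.4 and 17.8 CPM, a log2 change of -1.76 (SE 0.22, adjusted p = 3.21e-06). CCNE1 went from 23.3, 20.3 and 35.3 CPM to 4.66, 6.59 and 9.30 CPM, a log2 change of -1.94 (SE 0.32, adjusted p = 0.000114). In both genes the third culture was the highest of each group, and the groups did not overlap. E2F1 went from 33.1, 31.7 and 47.3 CPM to 8.51, 10.9 and 20.9 CPM, a log2 change of -1.48 (SE 0.30, adjusted p = 0.00117). CCND2 went from 69.0, 58.1 and 60.5 CPM to 39.2, 41.3 and 36.8 CPM, a log2 change of -0.68 (SE 0.16, adjusted p = 0.00525). The fall of CCND2 was small, yet each quizartinib culture lay under each vehicle culture, and its call ended without the filter on low counts (-0.65, adjusted p = 0.167).

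CCND3, which fell in RPMI, was at 220, 229 and 250 CPM with vehicle and at 208, 215 and 243 CPM with quizartinib in hBMSC-CM, a log2 difference of -0.07 (SE 0.19, adjusted p = 0.852), with overlapping groups. CDKN1A was at 151, 191 and 106 CPM with vehicle and at 227, 269 and 183 CPM with quizartinib, higher in 3 of 3 same-numbered pairs although the groups overlapped, a log2 difference of 0.60 (SE 0.62, adjusted p = 0.585). CDK6, at 252, 234 and 158 CPM with vehicle and 261, 253 and 179 CPM with quizartinib, and CDKN1B, at 35.9, 33.3 and 18.5 CPM and 44.9, 40.7 and 19.9 CPM, were not called either, and the third culture was the lowest in all of these groups. CDK4 fell from 143, 133 and 156 CPM to 60.1, 63.6 and 62.8 CPM, without overlap, a log2 change of -1.21 (SE 0.40, adjusted p = 0.0416). Leaving out any 1 of the 6 cultures ended this call (log2 -1.26 to -1.16, adjusted p 0.0511 to 0.117), as did RLE factors (-1.17, adjusted p = 0.0538). Of the 8 alternatives that kept every culture, 7 called it. The SE came from the fit of all 42 libraries, polysomes included. CCNE2 went from 10.2, 7.69 and 6.41 CPM to 2.79, 3.53 and 1.15 CPM, a log2 change of -1.69 (SE 0.46, adjusted p = 0.0134), and its call ended without the third quizartinib culture (-1.35, adjusted p = 0.0752) or the first vehicle culture (-1.49, adjusted p = 0.0582).

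None of the 10 genes was called between hBMSC-CM and RPMI under vehicle by edgeR, and the number at an unadjusted p under 0.05 and the calls of limma and DESeq2 were also 0, where 1.51% of all genes tested were called. The vehicle groups did not overlap for CCND3 (220 to 250 CPM in hBMSC-CM against 178 to 200 CPM in RPMI), which was higher in hBMSC-CM. Nor did they for CCND2 (58.1 to 69.0 against 69.2 to 80.1 CPM), CDK4 (133 to 156 against 183 to 204 CPM) and CDK6 (158 to 252 against 262 to 280 CPM), which were lower. The other genes overlapped. The share of all genes without overlap is not given here, so these ranges describe levels and are no result about the set. Under quizartinib, 5 genes were higher in hBMSC-CM than in RPMI, CCND2, CCND3, CCNE1, CDC25A and E2F1, where 8.16% of all genes tested were called and 6.11% were called higher. CCND3 had the clearest levels, 208 to 243 CPM in hBMSC-CM against 65.8 to 101 CPM in RPMI, a log2 difference of 1.35 (SE 0.19, adjusted p = 4.93e-06). CCND2 was at 36.8 to 41.3 CPM against 14.7 to 19.3 CPM, a log2 difference of 1.18 (SE 0.17, adjusted p = 3.54e-06). For both D-type cyclins every hBMSC-CM culture lay above every RPMI culture. CDC25A differed by 1.44 (SE 0.22, adjusted p = 2.04e-05) and E2F1 by 1.52 (SE 0.31, adjusted p = 0.000723), with the third E2F1 culture in hBMSC-CM, at 20.9 CPM, well above the other two. With only the libraries of the groups compared, E2F1 (1.53, adjusted p = 0.0567) and CCNE1 (1.12, adjusted p = 0.0900) were not called. CCNE1 differed by 1.11 (SE 0.32, adjusted p = 0.0210), and was not called by limma (1.09, adjusted p = 0.0555), without the third hBMSC-CM culture (0.83, adjusted p = 0.173) or without the first (1.07, adjusted p = 0.0751) or second (0.90, adjusted p = 0.154) RPMI culture. CDK4, which drives the same step as the D-type cyclins, was at 60.1 to 63.6 CPM against 51.0 to 54.8 CPM, a log2 difference of 0.24 (SE 0.39, adjusted p = 0.834).

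The test of the difference itself, the quizartinib change in hBMSC-CM minus that in RPMI, called 4 genes, where 1.96% of all genes tested were called and 1.79% in this direction. These were CCND2 (1.43, SE 0.23, adjusted p = 0.000226), CDC25A (1.44, SE 0.31, adjusted p = 0.00651), E2F1 (1.60, SE 0.42, adjusted p = 0.0354) and CCND3 (1.05, SE 0.27, adjusted p = 0.0272), all in log2 units. The fall of these 4 genes under FLT3 inhibition was smaller in hBMSC-CM. For CCNE1 the difference was 1.08 (SE 0.44, adjusted p = 0.318), and with the replicate block within each fraction 1.12 (SE 0.33, adjusted p = 0.0302), which made 5 calls. CCND2 and CDC25A were called in each of the 12 fits that left out 1 culture. E2F1 was not called in 8 of the 12 fits (lowest value 1.13, adjusted p = 0.243, without the third hBMSC-CM quizartinib culture), the others being those without any 1 RPMI vehicle culture, the first or second RPMI quizartinib culture or the first or second hBMSC-CM vehicle culture (1.33 to 1.68, adjusted p 0.0502 to 0.137). CCND3 was not called in 5 of them, without the first RPMI quizartinib (0.89, adjusted p = 0.114), the third RPMI vehicle (1.01, adjusted p = 0.0591), the first (1.01, adjusted p = 0.0656) or second (1.04, adjusted p = 0.0737) hBMSC-CM vehicle or the third hBMSC-CM quizartinib culture (0.98, adjusted p = 0.0625). Without the filter on low counts CCND3 was not called (1.06, adjusted p = 0.140), nor was E2F1 with only the libraries of the groups compared (1.62, adjusted p = 0.110). For CDK6, CCNE2, CDKN1A and CDKN1B the difference between media was not called. For CDK4 it was 0.65 (SE 0.56, adjusted p = 0.861), and with only the libraries of the groups compared it was called (0.67, SE 0.16, adjusted p = 0.0331).

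**Figure D2:**
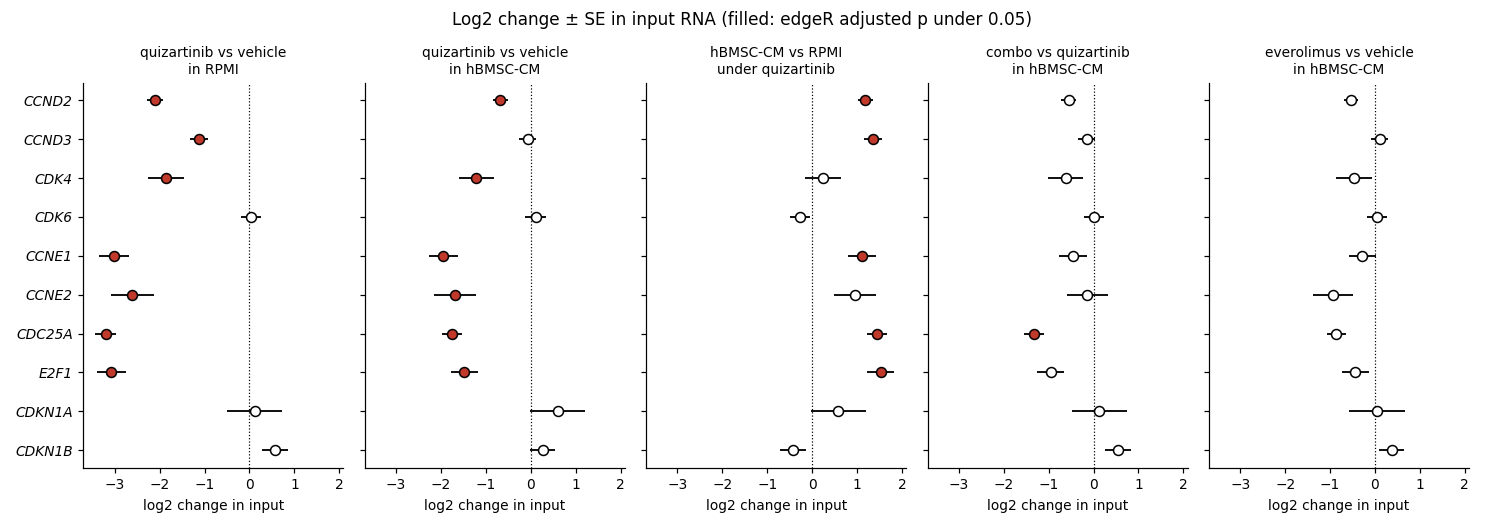
Log2 change in input RNA with its SE for the 10 genes in 5 comparisons, filled where the adjusted p was under 0.05. CDC25A lies at -3.20 in RPMI and at -1.76 in hBMSC-CM under quizartinib, and CCND3 at -1.12 and -0.07.

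Everolimus alone, an inhibitor of mTOR, was compared with vehicle in hBMSC-CM, and edgeR called none of the 10 genes, where 0.41% of all genes tested were called. CCND2, CCNE2 and CDC25A, 3 genes, had an unadjusted p under 0.05, and limma called 1 gene and DESeq2 2. CDC25A was at 27.8, 33.3 and 26.7 CPM against 50.8, 45.3 and 63.5 CPM with vehicle, with no overlap, a log2 difference of -0.86 (SE 0.22, adjusted p = 0.0638), and with the replicate block within each fraction -0.86 (SE 0.19, adjusted p = 0.00371). CCND2 was at 44.0, 43.1 and 42.3 CPM against 69.0, 58.1 and 60.5 CPM, also without overlap, a log2 difference of -0.54 (SE 0.16, adjusted p = 0.155), and with that block -0.53 (SE 0.14, adjusted p = 0.0180). Both values rest on the libraries that stood apart, whose replicate numbers did not pair them with the other conditions. CCNE2 was at 2.42, 5.48 and 4.73 CPM and CCND3 at 251, 251 and 250 CPM with everolimus alone.

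Adding everolimus to quizartinib lowered CDC25A further in hBMSC-CM. Its combo cultures were at 6.05, 7.56 and 5.03 CPM and its quizartinib cultures at 13.0, 16.4 and 17.8 CPM, a log2 change of -1.34 (SE 0.22, adjusted p = 0.00349), lower in 3 of 3 same-numbered pairs. It was the only one of the 10 genes called, where 0.24% of all genes tested were called lower, and the call ended when only the libraries of the groups compared were fitted (-1.32, adjusted p = 0.356). With the replicate block within each fraction 3 genes were called. CCND2, at 27.9, 26.9 and 25.2 CPM with combo, differed by -0.55 (SE 0.16, adjusted p = 0.174) and under the block by -0.55 (SE 0.14, adjusted p = 0.0218). E2F1, at 4.82, 7.13 and 8.81 CPM with combo, differed by -0.95 (SE 0.30, adjusted p = 0.266) and under the block by -0.91 (SE 0.22, adjusted p = 0.0137). CDK4 was at 36.6 to 44.9 CPM with combo against 60.1 to 63.6 CPM with quizartinib, without overlap, a log2 difference of -0.62 (SE 0.40) that was not called. CCND3 was at 179, 201 and 219 CPM with combo and lay above every RPMI culture under quizartinib. In RPMI, combo against quizartinib called none of the 10 genes by edgeR, and 0 at an unadjusted p under 0.05 or by limma or DESeq2, where 0.00773% of all genes were called. There CDC25A (4.18 to 4.58 against 5.01 to 7.09 CPM) and CDK4 (40.1 to 49.5 against 51.0 to 54.8 CPM) were lower with combo without overlap. The groups of the other genes overlapped. These ranges too are a description, given without the share over all genes.

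Per kilobase of exon (GENCODE v44 exons), the order of the set in RPMI vehicle input was CDK4 (61.6 CPM per kb), CDKN1A (46.5), CCND3 (32.8), CDK6 (22.4), E2F1 (14.6), CDC25A (12.8), CCNE1 (10.4), CCND2 (9.26), CDKN1B (3.44) and CCNE2 (1.80). In this order the ranges of E2F1 and CDC25A overlapped, as did those of CCNE1 and CCND2. With quizartinib in RPMI, CDKN1A stood at the top at 50.5 CPM per kb, followed by CDK6 at 22.8 and by CDK4 at 17.0 and CCND3 at 15.0, which overlapped, and the inhibitor CDKN1B at 5.11 lay above CCND2 at 2.16, E2F1 at 1.73, CDC25A at 1.39 and CCNE1 at 1.28, whose neighbouring ranges overlapped. In hBMSC-CM with quizartinib CCND3 at 38.5 CPM per kb followed CDKN1A at 75.5 and was clear of CDK4 at 20.1, which overlapped CDK6 at 18.9.

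Across the 21 input libraries, Pearson's r of log2 CPM described how the genes moved with one another, and these libraries share conditions, so it is a description only. CCNE1 and E2F1 (0.97), CDC25A and E2F1 (0.97) and CCNE1 and CDC25A (0.96) were the closest pairs, whereas CDK6 had a negative r with CCND3 (-0.60) and E2F1 (-0.45) and one of 0.76 with CDKN1B. Over all genes tested, the pattern most like that of E2F1 was CHAF1A (0.99), a chromatin assembly factor of S phase, followed by TRIM65 (0.98). PKMYT1 (0.98), a kinase that restrains CDK1, and CHAF1A (0.98) were nearest to CCNE1, and PPP5C (0.98) and RANBP1 (0.98) to CDC25A. The D-type cyclins had other neighbours, SLC1A5 (0.99), a glutamine transporter, and LDHA (0.99) for CCND2, and PLAUR (0.98) and PIM3 (0.97), a serine/threonine kinase, for CCND3. CDK4 was nearest to TIMM50 (0.99) and SSRP1 (0.98), and CCNE2 to PDE12 (0.96) and CYCS (0.95), which encodes cytochrome c. CDK6 was nearest to ACADM (0.93) and KDM2B (0.91), CDKN1A to NRP1 (0.94) and ETS1 (0.90), and CDKN1B to STAG2 (0.96) and STK24 (0.96).

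Of 26 other genes of the G1/S pathway (E2F and RB families, CDK2, the CDK-activating kinase, INK4 and KIP inhibitors and the SKP2 ligase), 23 passed the filter and CCND1, CDKN2A and CDKN2B did not. Under quizartinib in RPMI 12 of the 23 were called lower, where 18% of all genes tested were called lower, and the median log2 change was -0.75, against 0.08 over all genes tested. The partner of cyclin E, CDK2, changed by -1.43 (SE 0.18, adjusted p = 5.71e-08), and SKP2, which marks p27 for degradation, by -1.63 (SE 0.27, adjusted p = 8.80e-06). Among the E2F factors 7 fell, the activators E2F2 (-1.95) and E2F3 (-0.75) as well as the repressors E2F4 (-0.81), E2F5 (-1.37), E2F6 (-0.60), E2F7 (-1.62) and E2F8 (-1.21), and so did their partner TFDP1 (-1.70), RBL1 (-1.39), which encodes p107, and CABLES1 (-1.39). CDKN1C (p57) was at 0, 0.345 and 0.101 CPM with vehicle and at 1.12, 1.44 and 1.72 CPM with quizartinib. Its mean was under 1 CPM in every vehicle and everolimus group, so that it passed the filter only through libraries with quizartinib or combo, and its difference is given as a description.

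In hBMSC-CM 5 of the 23 fell under quizartinib and none was called higher, where 6.84% of all genes tested were called lower. These were E2F7 (-1.70), E2F2 (-1.15), E2F8 (-1.10), SKP2 (-0.92) and CDK2 (-0.61). Between media under quizartinib 3 were higher in hBMSC-CM, CABLES1 (1.75), E2F2 (0.89) and CDK2 (0.74), where 6.11% of all genes tested were called higher. In the test of the difference between media 1 was called, CABLES1 (1.33, SE 0.31, adjusted p = 0.0120), where 1.79% of all genes were called in this direction. CABLES1, which binds cyclin-dependent kinases, was at 15.6, 13.0 and 18.1 CPM in RPMI vehicle, at 6.80, 6.88 and 4.17 CPM in RPMI quizartinib and at 17.4, 19.6 and 23.2 CPM in hBMSC-CM quizartinib. As with CCND3, its hBMSC-CM cultures under quizartinib overlapped their vehicle cultures, which were at 19.5, 19.0 and 23.8 CPM. Everolimus alone called 0 of the 23 genes, where 0.41% of all genes tested were called. Combo against quizartinib also called 0 of the 23 in RPMI, where 0.00773% of all genes tested were called, and in hBMSC-CM, where 0.24% were. At such shares these counts are no result about the 23 genes.

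**Figure D3:**
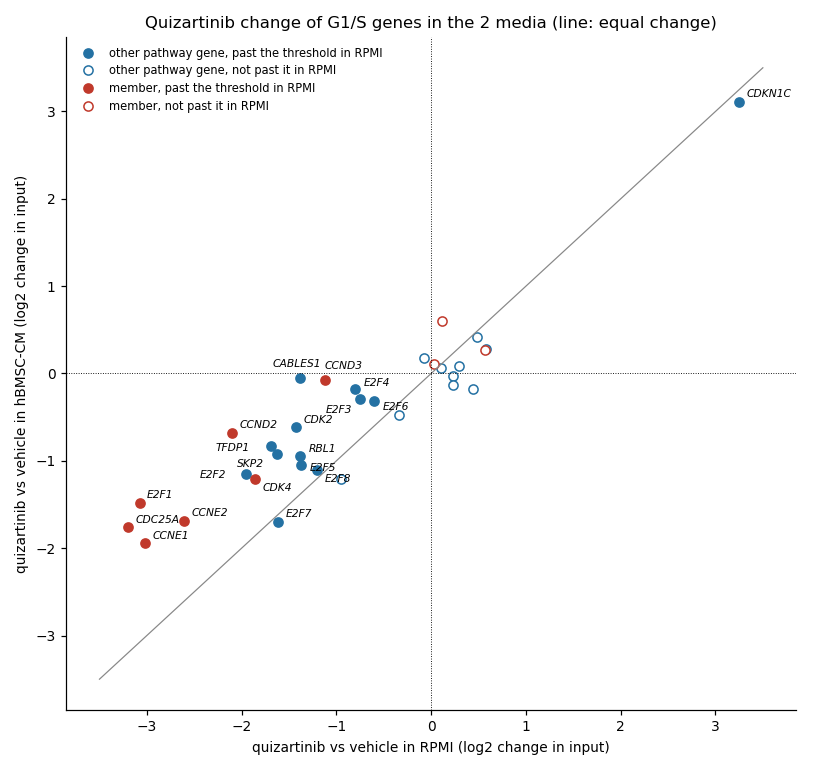
Log2 change in input under quizartinib in RPMI (horizontal) and hBMSC-CM (vertical) for the 10 genes (red) and 23 other G1/S genes (blue), filled and named where called in RPMI, with the line of equal change. E2F1 lies at -3.08 and -1.48, above the line, while E2F7 lies at -1.62 and -1.70, next to it.

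The share of each message in heavy polysomes was taken as the polysome minus the input level (log2), which sets a message against the other messages of its library and does not count ribosomes. CCND3 was higher in polysomes in all 7 conditions and CDK6 lower in all 7, whereas most other genes were called in some. The numbers called were 8 of 10 in RPMI vehicle, 6 in RPMI quizartinib, 5 in RPMI combo, and 6, 5, 4 and 7 in hBMSC-CM vehicle, quizartinib, everolimus and combo. Since 65.4%, 57.9%, 59.3%, 63.6%, 58.7%, 58.6% and 63% of all genes tested were called in these conditions, in the same order, such counts of members are no result about the set. With the replicate block within each fraction the count went from 5 to 8 in RPMI combo and from 4 to 7 with everolimus alone. The replicate numbers of everolimus alone did not pair its libraries with the other conditions, which limits its values under that block. Of the 23 other pathway genes, 7 were higher and 10 lower in polysomes in RPMI vehicle, and 5 and 6 in RPMI quizartinib. Of the 12939 genes tested, 4070 were higher and 4387 lower in RPMI vehicle, and 4037 and 3454 in RPMI quizartinib. The counts of the 23 genes are therefore no result about them either.

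CCND3 was at 842, 688 and 574 CPM in RPMI vehicle polysomes and at 189, 178 and 200 CPM in the inputs, a log2 difference of 1.89 (SE 0.20, adjusted p = 3.13e-09). In the other 6 conditions the difference was 1.55 to 1.87, and all 7 calls were kept without any 1 culture and under every alternative that was run. With quizartinib in RPMI it remained 1.55 (SE 0.19, adjusted p = 7.55e-08), at 225, 322 and 217 CPM in polysomes, so that the level fell in both fractions. CDK6 was at 89.3, 121 and 117 CPM in RPMI vehicle polysomes, against 262 to 280 CPM in the inputs, a difference of -1.33 (SE 0.23, adjusted p = 1.01e-05). With quizartinib it was at 157, 147 and 268 CPM in polysomes, the third culture being above its input of 219 CPM, a difference of -0.55 (SE 0.23, adjusted p = 0.0370), which was not called without the first (-0.36, adjusted p = 0.309) or second (-0.31, adjusted p = 0.369) culture, with a block per culture (-0.60, adjusted p = 0.0731), without the filter on low counts (-0.59, adjusted p = 0.0579) or with only the libraries compared (-0.61, adjusted p = 0.0953). In RPMI combo it was -0.52 (SE 0.23, adjusted p = 0.0494), not called without the first (-0.51, adjusted p = 0.143) or second (-0.32, adjusted p = 0.363) culture, with a block per culture (-0.53, adjusted p = 0.103) or without the filter on low counts (-0.54, adjusted p = 0.0950). In hBMSC-CM it was -1.31 with vehicle, -0.98 with quizartinib, -0.90 with everolimus and -0.89 with combo, the last not called without the second culture (-0.64, adjusted p = 0.0519). CCND2 was called in no condition (-0.09 to 0.27), although with library size only it was called lower in RPMI vehicle (-0.59, adjusted p = 0.00854), hBMSC-CM vehicle (-0.52, adjusted p = 0.0197) and hBMSC-CM quizartinib (-0.52, adjusted p = 0.0227).

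CDK4 was higher in polysomes in 6 of 7 conditions, and with everolimus alone the difference was 0.64 (SE 0.39, adjusted p = 0.158). With the replicate block within each fraction CDK4 was called there too (0.77, SE 0.22, adjusted p = 0.00242), although the replicate numbers did not pair those libraries with the other conditions. A block per culture ended the CDK4 call in RPMI quizartinib (0.86, adjusted p = 0.0738) and RPMI combo (0.78, adjusted p = 0.0948). In RPMI vehicle the difference was 1.25 (SE 0.40, adjusted p = 0.00696), from 460, 631 and 264 CPM in polysomes. The second polysome library was the highest in each of these 6 conditions, and without that culture the CDK4 call ended in all 6, at 0.90 (RPMI vehicle), 0.63 (RPMI quizartinib), 0.38 (RPMI combo), 0.69 (hBMSC-CM vehicle), 0.68 (hBMSC-CM quizartinib) and 0.50 (hBMSC-CM combo). The call also ended without the first culture in RPMI quizartinib (0.92), RPMI combo (1.12) and hBMSC-CM vehicle (1.02) and without the third in RPMI combo (1.00), and with library size only it ended in 5 of the 6 (0.50 to 0.68), all but hBMSC-CM combo (0.83, adjusted p = 0.0361). The same libraries held the highest CDKN1A. In RPMI vehicle polysomes CDKN1A was at 228, 643 and 208 CPM and in hBMSC-CM combo at 399, 1216 and 268 CPM, while with everolimus alone it was at 236, 248 and 295 CPM. CDKN1A was called in no condition (0.75 to 1.37), but with the replicate block within each fraction it was called in all 7, at 0.83 to 1.18 (adjusted p 0.000245 to 0.00719), with the same limit for everolimus alone. With a block per culture it was called in 4 of the 7, both vehicle groups and hBMSC-CM quizartinib and combo (1.02 to 1.17, adjusted p 0.0124 to 0.0300).

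Among the S phase genes, CDC25A was called higher in polysomes in 6 conditions (0.48 to 0.96), CCNE1 in 5 (0.70 to 1.10) and E2F1 in 4 (0.71 to 0.89), and CCNE2 was called lower in 4 (-1.55 to -1.03). With the replicate block within each fraction CDC25A (0.49, adjusted p = 0.0306) and CCNE1 (0.59, adjusted p = 0.0409) were also called in RPMI combo and E2F1 in hBMSC-CM quizartinib (0.57, adjusted p = 0.0197), and CCNE2 was also called lower in hBMSC-CM vehicle (-1.04, adjusted p = 0.0143) and with everolimus alone (-0.96, adjusted p = 0.0265). A block per culture ended the calls of E2F1 in RPMI vehicle (0.69, adjusted p = 0.0766), RPMI quizartinib (0.77, adjusted p = 0.0724) and hBMSC-CM combo (0.75, adjusted p = 0.0663). It also ended those of CCNE1 in hBMSC-CM vehicle (0.69, adjusted p = 0.0677) and with everolimus alone (0.71, adjusted p = 0.0613) and that of CDC25A in hBMSC-CM vehicle (0.49, adjusted p = 0.0647). Leaving out 1 culture ended some of these calls in each condition. CDC25A, with a difference of 0.96 (SE 0.22, adjusted p = 0.000389) in hBMSC-CM combo, was called there in all fits that left out 1 culture, and CCNE1 in RPMI vehicle likewise (1.10, SE 0.31, adjusted p = 0.00221), although not with library size only (0.54, adjusted p = 0.103). E2F1 in RPMI vehicle was at 85.3, 56.9 and 51.3 CPM in polysomes against 34.3 to 44.0 CPM in the inputs, and its call ended without the first (0.47, adjusted p = 0.276) or the second (0.71, adjusted p = 0.102) culture. CCNE2 in RPMI quizartinib, the lowest value of the 10 genes (-1.55, SE 0.50, adjusted p = 0.00907), rested on a second polysome library at 0.102 CPM and was not called without it (-0.54, adjusted p = 0.427). CDKN1B was lower in polysomes with vehicle in RPMI (-0.69, SE 0.28, adjusted p = 0.0316) and in hBMSC-CM (-0.65, SE 0.28, adjusted p = 0.0450). These calls ended without the first culture in both (-0.46 and -0.59), without the third in RPMI (-0.79) and without the second in hBMSC-CM (-0.54), and in both with DESeq2 (-0.55 and -0.53) or RLE factors (-0.55 and -0.53).

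**Figure D4:**
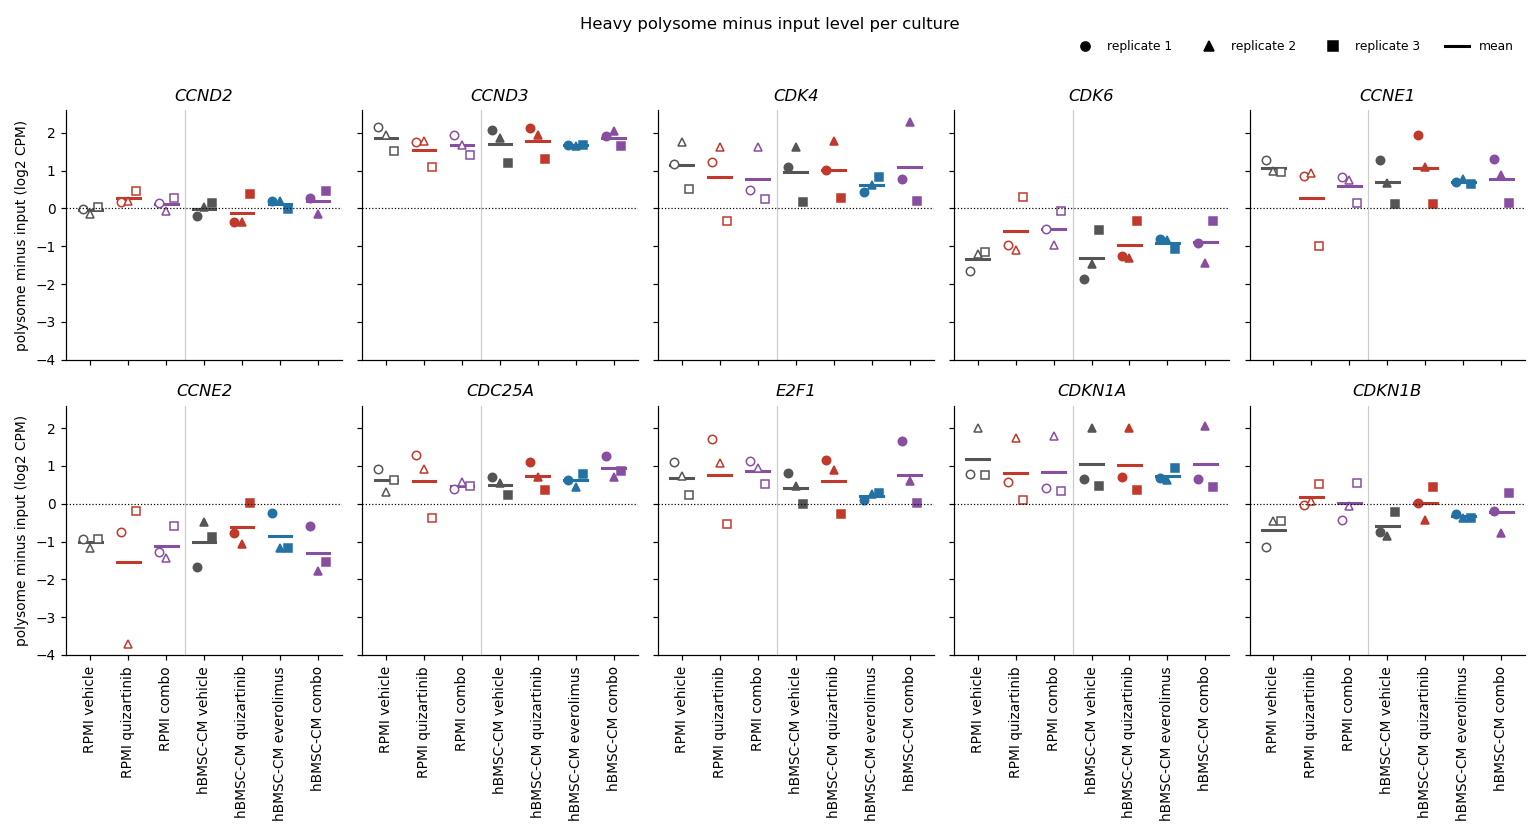
Polysome minus input level (log2 CPM) of each culture in the 7 conditions, with open symbols for RPMI, filled symbols for hBMSC-CM, a shape for each replicate number and a bar for the mean. All CCND3 cultures lie above 0 (1.10 to 2.15), and for CDKN1A replicate 2 lies highest in every condition but everolimus alone.

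Whether a treatment moved a gene in polysomes by more or less than in the input was tested for 5 comparisons, quizartinib against vehicle in each medium, everolimus against vehicle, hBMSC-CM against RPMI under quizartinib and combo against quizartinib in hBMSC-CM. The number of the 10 genes called was 0 in each by edgeR, limma and DESeq2. In RPMI, where 1.55% of all genes tested were called, 2 genes had an unadjusted p under 0.05, CDK6 and CDKN1B, and in the other 4 comparisons there were 0 such genes and edgeR called 0% of all genes. For CDK6 the polysome change exceeded the input change under quizartinib in RPMI by 0.77 (SE 0.32, adjusted p = 0.233), and for CDKN1B by 0.84 (SE 0.40, adjusted p = 0.299). CDKN1B went from 16.8, 24.0 and 18.4 CPM to 53.1, 57.7 and 46.2 CPM in these polysomes, without overlap, while the input groups overlapped. These levels are relative to the other messages of a library and do not give amounts. The paper reports that quizartinib cut the RNA yield of heavy polysomes more than that of input. With the replicate block within each fraction both were called, CDK6 at 0.75 (SE 0.23, adjusted p = 0.0290) and CDKN1B at 0.86 (SE 0.26, adjusted p = 0.0281). The median over all genes tested was 0.15 in this comparison with TMM factors, 0.01 with RLE factors and 0.38 by library size. For the 7 genes that fell in the input, the fitted difference was -0.79 (CCNE1, SE 0.44, adjusted p = 0.398) to 0.30 (CCND2, SE 0.23, adjusted p = 0.581), with CDC25A at 0.05. Of the other pathway genes E2F8 was called (1.66, SE 0.39, adjusted p = 0.0171), with 1.33, 2.08 and 2.38 CPM in RPMI vehicle polysomes and 2.61, 1.94 and 3.41 CPM with quizartinib, which overlapped, while its input fell from 9.27, 12.6 and 9.17 CPM to 3.15, 4.88 and 5.43 CPM.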

How the data were processed

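RNA-seq counts of input and heavy polysome RNA from 21 MOLM-13 cultures were analysed. Cells received cycloheximide before lysis, and heavy polysomes were taken from sucrose gradients. The authors sequenced poly(A) libraries in pairs, used BBDuk for adapter trimming and for dropping short reads, aligned with STAR 2.6.0a to hg38 (Ensembl release 96) and deposited the raw count of each gene, not normalized. The 58884 gene rows hold 57353 names, and rows sharing a name were summed. The filter on low counts kept genes whose mean count and mean CPM were both 1 or more (12939 genes, 99.8% of the counts), and 0 columns were left unused. Group and replicate number came from the sample labels. The study calls its replicates biological. The p-values rest on a spread between these samples that was estimated per gene over input and polysome libraries together. For CDKN1A and CDK4 the polysome values varied far more than the input values. The SE of their input comparisons therefore does not describe the input cultures alone.

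All 42 libraries entered 1 quasi-likelihood fit (edgeR 4.0.16, R 4.3.3, robust, TMM factors, 14 group means, no block), with Benjamini-Hochberg adjustment over all genes tested. SE is the absolute log2 change over the root of F. Log2 CPM used a prior count of 2. The common biological coefficient of variation was 0.279. Alternatives were limma 3.58.1 (voom), DESeq2 1.42.0, other scaling (RLE factors or library size only), no low-count filter, a fit of just the groups compared, a block for the replicate number (over all libraries, within each fraction, or per culture), and leaving out each culture. The scripts were tested on simulated independent counts with 1 spread for all genes and libraries. That test did not cover the shared deviations of same-numbered replicates or the smaller spread of everolimus alone. Same-numbered replicates of the 6 conditions other than everolimus alone deviated together from their group means (r 0.28 to 0.66 over 45 input pairs and 0.15 to 0.72 over 45 polysome pairs, every pair over 0.1), while libraries of everolimus alone did not (-0.06 to 0.0023 and -0.24 to 0.10). Input and polysome libraries of one culture had r of -0.04 to 0.30.

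The 10 members, the 26 other pathway genes and the marker lists were chosen with earlier results of these data known. Single-gene results of the alternatives were kept for the members alone, all of which are named. Their log2 change, SE and adjusted p are given where called or where the text turns on a missed call, each with its 2 genes of highest Pearson r, and other pathway genes only where called under quizartinib in RPMI. Promoter windows are RefSeq's. Gene positions and exon lengths are from GENCODE v44 on GRCh38, another release than the authors'.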

Additional observations from a re-analysis of the deposited data

Results flagged for a closer look

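In input RNA, 5 results differed between the media by the test of the difference itself, the quizartinib change in hBMSC-CM minus that in RPMI on the log2 scale. The differences were 1.43 for CCND2, 1.05 for CCND3, 1.44 for CDC25A, 1.60 for E2F1 and 1.33 for CABLES1. The CCND3 and E2F1 differences lost their call without some single cultures. For CABLES1, neither the alternatives nor the fits that left out 1 culture were examined. Groups of 3 cultures were too small for a test of single outlying cultures.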

How the results depend on the processing

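The number of the 10 genes called was within 1.5 times that of the report in 153 of 172 counts under the alternatives that kept every culture, and in 88 of 105 counts that left out 1 culture. For everolimus alone in hBMSC-CM (0 in the report) it was 1 with limma and with the replicate block, and 2 with DESeq2 and with the replicate block within each fraction. For combo against quizartinib in hBMSC-CM (1) it was 2 with DESeq2, 3 with the replicate block within each fraction and 0 with only the libraries compared, and for hBMSC-CM against RPMI under quizartinib (5) it was 3 with only the libraries compared. For polysome minus input it was 5 in RPMI vehicle (8) with library size only. In RPMI quizartinib (6) it was 3 with library size only, 3 with a block per culture and 2 with only the libraries compared. In RPMI combo (5) it was 3 with limma, with library size only and with a block per culture, and 8 with the replicate block within each fraction. With everolimus alone (4) it was 7 with the replicate block within each fraction and 8 with only the libraries compared. For the polysome change minus the input change under quizartinib in RPMI (0) it was 2 with that block. The causes were not tested, and the block changed no count by more than 1.5 times elsewhere. Leaving out 1 culture gave 2 to 4 genes for the difference between media, and for polysome minus input 4 to 6 in RPMI vehicle, 1 to 7 in RPMI quizartinib, 1 to 4 in RPMI combo, 2 to 5 in hBMSC-CM vehicle, 3 to 6 in hBMSC-CM quizartinib, 2 to 3 with everolimus alone and 2 to 7 in hBMSC-CM combo. Library size only moved the median of all genes in polysome minus input to as low as -0.63, and there CDC25A in hBMSC-CM vehicle turned to -0.025 (adjusted p = 0.924). This was the only one of 64 called values of the 10 genes that changed sign under an alternative that kept every culture, and of the 136 values that were not called 27 did. CCNE2, with as few as 3 counts in a library, is limited by depth.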
